A study of Mus musculus with 6 samples.

Results

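Of the 25330 genes listed in every count table of these AML12 cells, 46 encode proteins that make, store or burn fatty acids, and these are described here. They were taken from a fixed list by gene symbol and all 46 were found. They were sorted by role into 13 genes of fatty acid synthesis and desaturation, 6 of triglyceride assembly, 12 of lipid droplets, lipolysis and fatty acid uptake, 10 of β-oxidation, and 5 transcriptional regulators. Enough reads for a test were available for 42 of them, out of 14020 genes tested in all. AML12 is an immortalised mouse hepatocyte line, here with Klf6 not knocked out, which the study calls wild type. The 3 control libraries came from cells kept in normoxia at 21% O2. The 3 H/R libraries came from cells exposed to 1% O2 for 6 h and reoxygenated for 2 h. Cells of the H/R group were also moved to medium without serum and without glucose, so the parts of oxygen and of medium cannot be told apart. Cells were grown with fetal bovine serum, an ITS supplement and dexamethasone, and whether the last 2 were kept during hypoxia is not given in the sources used here. The study's methods state that experiments were repeated, without tying this to these libraries, and the labels do not say whether libraries of a group came from separate cultures, so p-values measure the spread between these libraries, which may be technical.

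Fatty acids are built in the cytosol. ATP citrate lyase (Acly) releases acetyl-CoA from citrate, acetyl-CoA carboxylases (Acaca, Acacb) turn it into malonyl-CoA, and fatty acid synthase (Fasn) joins these units into palmitate, which elongases (Elovl genes) lengthen and desaturases (Scd and Fads genes) give double bonds. Surplus fatty acids are esterified to triglyceride and stored in droplets coated by perilipins, and lipases set them free again. For oxidation, fatty acids enter mitochondria through carnitine palmitoyltransferases (Cpt1a, Cpt2) and are shortened step by step. Hepatocytes carry out all of these pathways, and malonyl-CoA, the product of the first committed step of synthesis, inhibits Cpt1a.

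Total counts per library lay between 20438746 and 21854790. Of all tested genes, 62.8% passed an adjusted p of 0.05 in the quasi-likelihood test of edgeR (Benjamini-Hochberg), 31% higher and 31.8% lower in H/R. With the additional threshold of a 2-fold change, 8.52% were called, 4.25% higher and 4.27% lower. Hepatocyte markers were checked first: the keratins Krt8 and Krt18 and the liver factor Hnf4a were well expressed in every library, whereas albumin (Alb) had only 542, 132 and 209 counts in control and 31 to 43 in H/R libraries. Libraries of a group were set side by side by chi-square per degree of freedom, which grows with their difference. It was 15.5 and 16.2 for control replicate 1 against control replicates 2 and 3, and 5.6 between those. Between H/R libraries it was 2.19 to 3.35. Control replicate 1 also stood apart in liver transcripts that were hardly counted elsewhere. Fabp1 had 46 counts there and Slc27a2 had 32 (both picked after their values were seen), against at most 2 in every other library. The 7 genes called below were called without this library too, and 30 in place of 31 passed. Of 17 hepatocyte markers listed, 5 had too few counts to test. Of the 12 tested, 8 were lower and 3 higher in H/R, and 4 were called, all lower, with a median log2 fold change of -0.77. The summed counts of all 17, mostly Krt8 and Krt18, were 89543 to 98259 in control and 127399 to 135635 in H/R libraries. All 3 cholangiocyte keratin and Sox9 markers in the tables were higher, their summed counts being 27782 to 31681 in control and 49854 to 54203 in H/R libraries. Of 5 macrophage markers 2 could be tested, both higher and with Cd68 called, and the summed counts of all 5 were 64 to 76 in control and 174 to 216 in H/R libraries. The part of these marker changes in the results was not tested. All libraries came from the AML12 line, so the markers do not count cells of other types. In bulk RNA a change in the number of cells expressing a marker and a change in its RNA per cell cannot be told apart. The adipocyte-defining genes Adipoq and Plin1 had 3 counts or fewer in each library, and summed adipocyte markers were 56 to 67 in control and 50 to 72 in H/R libraries.

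The promoters of the 5 genes of the list with the largest log2 fold changes (given below) are shown because a shared motif can be looked for in them. They cover up to 250 bases before the annotated start, read 5′ to 3′ on the gene's strand, from RefSeq on GRCm38.p6. Capitals mark ACGTG, a core of the hypoxia response element, or CCAAT, the box bound by NF-Y. They also mark TCACNCCAC, a core of the sterol response element. Each was sought on either strand, and other forms of these elements were not searched for. Fasn lies at chr11:120824548-120824797 (minus strand), and of its 3 CCAAT matches the last 2 overlap. Elovl6 lies at chr3:129532136-129532256 (plus strand) and is cut to 121 bases at an annotated exon, so that the 129 bases nearest the start are not printed. The whole window held none of the 3 motifs. Hilpda lies at chr6:29272238-29272487 (plus strand) and Ppargc1a at chr5:51567727-51567975 (minus strand). Ehhadh lies at chr16:21787845-21788084 (minus strand), also cut at an annotated exon. The last, shorter stretch, chr6:29272573-29272597 (plus strand), surrounds the ACGTG 43 bases before the second annotated start of Hilpda and lies in an exon transcribed from the first.
Fasn: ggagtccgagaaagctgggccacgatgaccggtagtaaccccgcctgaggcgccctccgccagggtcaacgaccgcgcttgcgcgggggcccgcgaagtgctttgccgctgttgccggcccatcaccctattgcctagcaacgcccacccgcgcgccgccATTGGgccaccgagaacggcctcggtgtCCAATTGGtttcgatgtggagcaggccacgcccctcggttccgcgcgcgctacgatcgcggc
Elovl6: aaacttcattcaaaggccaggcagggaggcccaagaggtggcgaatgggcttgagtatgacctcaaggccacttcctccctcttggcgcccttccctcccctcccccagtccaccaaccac
Hilpda: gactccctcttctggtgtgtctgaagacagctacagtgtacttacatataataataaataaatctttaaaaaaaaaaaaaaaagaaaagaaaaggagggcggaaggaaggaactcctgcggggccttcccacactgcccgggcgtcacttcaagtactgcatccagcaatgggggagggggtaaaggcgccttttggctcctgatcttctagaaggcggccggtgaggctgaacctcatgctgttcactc
Ppargc1a: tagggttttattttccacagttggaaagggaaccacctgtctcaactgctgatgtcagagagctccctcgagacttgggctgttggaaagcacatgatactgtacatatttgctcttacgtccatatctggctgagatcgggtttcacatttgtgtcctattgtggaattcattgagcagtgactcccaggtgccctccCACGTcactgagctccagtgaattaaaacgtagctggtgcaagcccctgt
Ehhadh: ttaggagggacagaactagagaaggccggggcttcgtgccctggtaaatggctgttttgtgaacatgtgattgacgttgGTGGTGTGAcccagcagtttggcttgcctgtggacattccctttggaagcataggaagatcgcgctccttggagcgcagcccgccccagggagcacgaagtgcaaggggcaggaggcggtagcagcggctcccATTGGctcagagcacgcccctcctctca
Hilpda, second start: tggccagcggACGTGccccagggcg

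Promoters were found for 39 of the 46 genes, in 50 windows. ACGTG stood in 14 of the 50 windows (28.0%) and in 16.6% of all 32851 mouse promoter windows, while CCAAT stood in 34.0% and 33.8%, respectively. TCACNCCAC was found in 1 of the 50 windows, that of Ehhadh, and in 1.05% of all windows. Of the genes called higher, Ppargc1a had an ACGTG 51 bases before its start and Hilpda 43 bases before its second start, with none before its first. Genes that were not called also had ACGTG this near a start, among them Lpin2 (9 and 8 bases) and Mgll (44 and 43 bases). In both genes these neighbouring matches overlap and are a CACGTG read on either strand. The share of all windows with ACGTG at such a distance was not computed. Among the synthesis genes that passed lower, 9 windows of 8 genes held ACGTG in 2, CCAAT in 4 and TCACNCCAC in none. These are matches of letters and carry no information on binding.

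Most transcripts of fatty acid synthesis were lower in H/R. Of 12 tested genes, 11 passed lower (31.8% of all tested genes did), none passed higher, and 4 were called lower (4.27% of all tested genes were), with a median log2 fold change of -0.56 against -0.01 over all tested genes. All 11 passed lower under every alternative setting that was run. Together the 13 genes took 0.811%, 0.808% and 0.84% of the counts in the control libraries but 0.434%, 0.432% and 0.44% in the H/R libraries. The 4 called genes were Acly, Acaca and Fasn, which lead from citrate to palmitate, and Elovl6, which lengthens palmitate to stearate.

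Elovl6 changed most. Its normalized counts were 4590, 4739 and 4039 in the control and 1019, 949 and 1014 in the H/R libraries, a 4.48-fold fall (log2 fold change -2.16, SE 0.055, edgeR adjusted p = 2.24e-23). The gene lies at chr3:129532355-129638495. The H/R libraries lay far below the lowest control library.

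Fasn, at chr11:120805846-120824547, had 14611, 14478 and 14669 normalized counts in control and 4302, 4057 and 4168 in H/R libraries. Its level fell 3.49-fold (log2 fold change -1.80, SE 0.044, edgeR adjusted p = 2.49e-27), and the spread within each group (SD 98 and 122) was small beside the gap of the means, 14586 and 4176. Acaca, at chr11:84129672-84401651, fell 2.58-fold, from 5301, 5126 and 5346 to 2012, 2040 and 2071 normalized counts (log2 fold change -1.37, SE 0.043, edgeR adjusted p = 2.52e-24). A processed pseudogene, Gm5182, matches 6118 of the 9513 bases of its transcript at 99.2% identity, so its reads could be split by the counting. Its isoform Acacb, which makes the malonyl-CoA that controls Cpt1 at the mitochondrion, was almost absent, with 7, 3 and 4 counts in control and 1 in each H/R library, and was not tested.

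Acly supplies the acetyl-CoA. At chr11:100476353-100528000, it fell 2.22-fold, from 12844, 12512 and 12620 to 5648, 5717 and 5711 normalized counts (log2 fold change -1.15, SE 0.042, edgeR adjusted p = 2.56e-22). Acss2, the alternative source that activates acetate, fell only 1.29-fold (log2 fold change -0.37, edgeR adjusted p = 5.99e-08). Me1, the malic enzyme that makes NADPH for synthesis, was the only tested synthesis gene that did not pass, with a log2 fold change of -0.04 (edgeR adjusted p = 0.369) and overlapping groups. Its transcript has near-identical pseudogene copies, among them Gm7049 over 1638 bases.

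The desaturases Scd2, Fads2 and Scd1 had the highest RPKM of the 46 genes, and with TMM scaling they fell by less than 2-fold. Stearoyl-CoA desaturases place the first double bond into stearate. Scd2 had a mean of 583 RPKM in control and 284 in H/R. Its normalized counts fell 1.91-fold, from 65292, 63151 and 66195 to 34035, 33140 and 34862 (log2 fold change -0.93, SE 0.045, edgeR adjusted p = 7.45e-19). Scd1 fell 1.48-fold, from 28694, 29162 and 29297 to 19869, 19670 and 19245 normalized counts (log2 fold change -0.57, SE 0.044, edgeR adjusted p = 2.32e-13). Neither gene's groups overlapped. Scd2 reached 2-fold under upper quartile scaling, library totals and both RPKM settings (log2 fold change -1.04 with library totals) but not with TMM scaling, and Scd1 under none. Both share a stretch of 623 bases at 95.5% identity, and reads there may be split between them.

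The other desaturases and elongases also passed lower, under 2-fold. Fads2 (Δ6 desaturase) fell by 0.55 on the log2 scale and Fads1 (Δ5 desaturase) fell by 0.19, both past the adjusted p threshold with edgeR (adjusted p = 1.36e-12 and 0.000262). Elovl5, which lengthens polyunsaturated chains, and Elovl1, which makes very long saturated chains, fell by 0.34 and 0.55. The 11 synthesis genes that passed therefore ranged from a fall of 0.19 to one of 2.16 on the log2 scale.

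**Figure D1:**
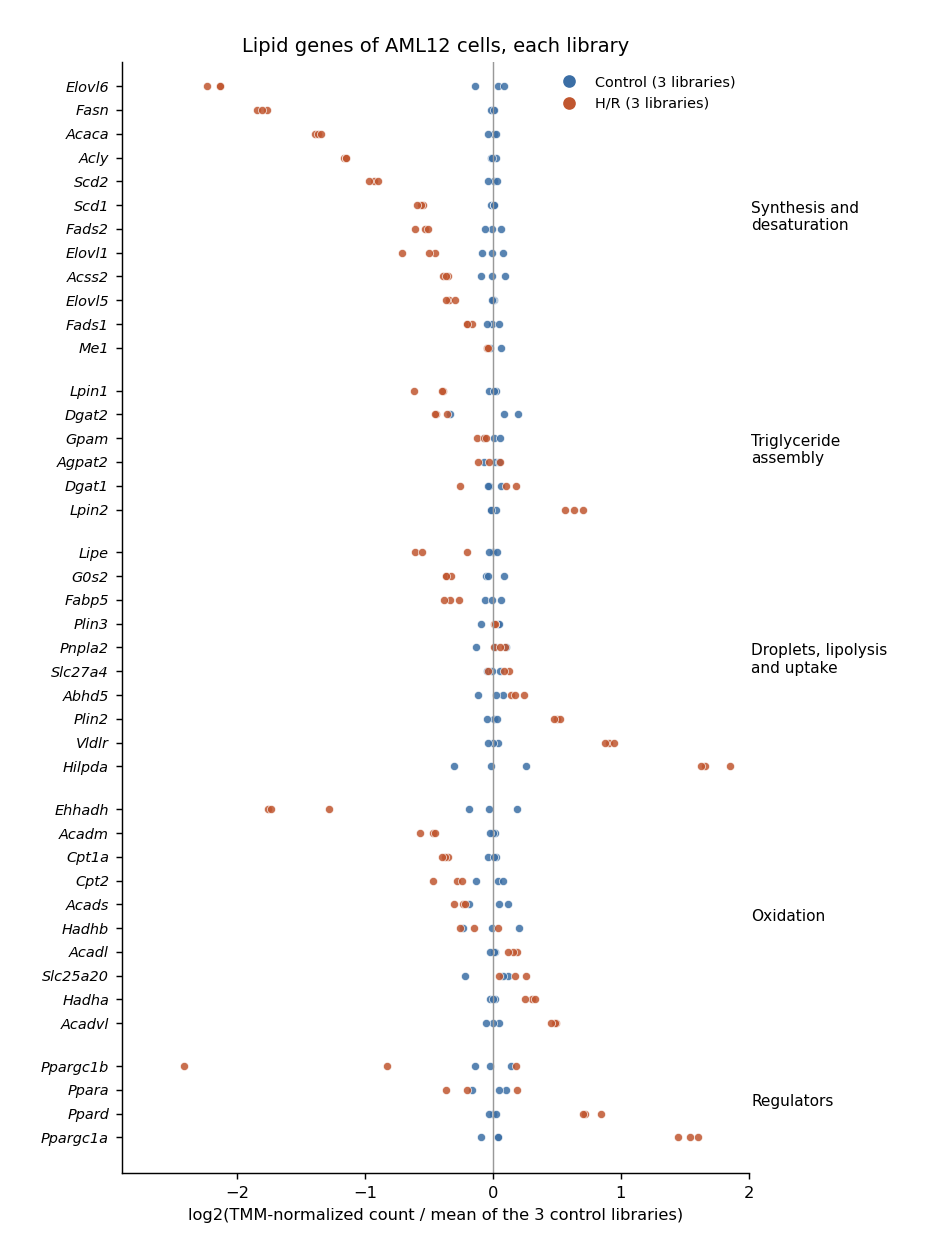
Each point is 1 library of a tested gene, with the log2 ratio of its TMM-normalized count to the mean of the 3 control libraries on the horizontal axis and genes grouped by role on the vertical axis; blue points are control and orange points H/R libraries. The H/R points of Elovl6 lie near -2, those of Hilpda, Ppargc1a and Vldlr lie to the right of all their control points, and the H/R points of Ppargc1b are spread widely.

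A list of 29 further synthesis genes also takes in genes of mitochondrial fatty acid synthesis and acyl-CoA synthetases. More of them passed lower than higher. Of 21 tested, 13 passed lower and 2 higher (31.8% and 31% of all tested genes did), with a median log2 fold change of -0.44. Of the 21, 4 were called, all lower (4.27% of all tested genes were). Idh1, a cytosolic source of NADPH, fell 2.23-fold (log2 fold change -1.16, edgeR adjusted p = 8.98e-22). Hacd1, a dehydratase of fatty acid elongation, changed by -1.40, and Mcat, the malonyltransferase of mitochondrial fatty acid synthesis, by -1.01 on the log2 scale. Mcat was under 2-fold with DESeq2 and log2(RPKM + 1) (-0.997 and -0.814) and without control replicate 2, control replicate 3 or H/R replicate 1 (-0.993, -0.99 and -0.939). The desaturase Scd4 changed by -1.08 at a mean of 14.9 normalized counts in control, and its adjusted p of 0.023 by edgeR rose to 0.144 with DESeq2 and to 0.146, 0.0894 and 0.0917 without control replicate 3, H/R replicate 1 or H/R replicate 2. It was also under 2-fold with log2(RPKM + 1) and log2(RPKM + 0.1), at -0.14 and -0.676.

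Triglyceride assembly held changes in both directions. Of its 6 genes, all tested, 2 passed lower and 1 higher (31.8% and 31% of all tested genes did), none was called (8.52% of all), and the median log2 fold change was -0.06. The 6 genes held 0.0254% to 0.0267% of counts in control and 0.025% to 0.0262% in H/R libraries. The clearest change was between the lipins, phosphatidate phosphatases that make the diacylglycerol used for triglyceride. Lpin1 went from 1624, 1565 and 1612 to 1221, 1217 and 1044 normalized counts (log2 fold change -0.46, SE 0.054, edgeR adjusted p = 4.26e-09). Lpin2 went the other way, from 1584, 1629 and 1588 to 2368, 2602 and 2489 (log2 fold change 0.64, SE 0.046, edgeR adjusted p = 4.23e-14). Groups of both genes were apart.

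Gpam, the mitochondrial acyltransferase of the first step, had 1402, 1326 and 1452 normalized counts in control and 1281, 1327 and 1341 in H/R libraries (log2 fold change -0.08, edgeR adjusted p = 0.154), and the groups overlapped. Agpat2, of the second step, had a log2 fold change of -0.03 (edgeR adjusted p = 0.767). Diacylglycerol acyltransferases finish the molecule. Dgat1 had 213, 227 and 212 normalized counts in control and 247, 182 and 233 in H/R libraries, with a log2 fold change of 0.02 (edgeR adjusted p = 0.864) whose sign was negative under upper quartile scaling, library totals and RPKM. Dgat2, which mainly esterifies newly made fatty acids, had 113, 78 and 104 against 72.2, 76.6 and 72 (log2 fold change -0.42, SE 0.16, edgeR adjusted p = 0.0196). The lowest control library of Dgat2 lay just above the highest H/R library, and its adjusted p was 0.126, 0.0688, 0.0503 and 0.0578 without control replicate 1, control replicate 3, H/R replicate 1 and H/R replicate 3, and 0.127 with DESeq2. Of 14 further genes of triglyceride assembly 7 were tested, of which 5 passed lower, none higher and none was called, with a median of -0.34. Over all tested genes 31.8% passed lower, 31% higher and 8.52% were called.

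The largest rise in the 46-gene list was that of a droplet gene. Among the 12 genes of droplets, lipolysis and uptake, 10 were tested, 4 passed higher, 3 lower, and 1 was called, with a median log2 fold change of 0.06. These shares lay near those of all tested genes, 31% higher, 31.8% lower and 8.52% called. Hilpda, a small droplet protein and hypoxia-inducible inhibitor of adipose triglyceride lipase, lies at chr6:29272488-29275446. Its normalized counts were 48.3, 58.5 and 39.5 in control and 154, 151 and 176 in H/R libraries, a 3.29-fold rise (log2 fold change 1.72, SE 0.15, edgeR adjusted p = 5.48e-12). Its highest control library was well below its lowest H/R library, and the second-start stretch printed above with an ACGTG belongs to this gene.

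Plin2, the perilipin that coats hepatocyte droplets, rose 1.42-fold, from 4459, 4285 and 4530 to 6252, 6378 and 6152 normalized counts (log2 fold change 0.50, SE 0.041, edgeR adjusted p = 6.64e-13). Plin3, the more widely expressed perilipin, had a log2 fold change of 0.01 (edgeR adjusted p = 0.797), which was negative under upper quartile scaling, library totals and RPKM. Vldlr, a receptor for triglyceride-rich lipoproteins, rose 1.88-fold, from 3016, 2947 and 2858 to 5526, 5388 and 5671 (log2 fold change 0.91, SE 0.042, edgeR adjusted p = 1.61e-19). For Plin2 and Vldlr every H/R library was above every control library.

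The lipases of the 46-gene list, and their partners other than Hilpda, changed by less than 2-fold. Pnpla2, the adipose triglyceride lipase, had 706, 638 and 748 normalized counts in control and 702, 746 and 724 in H/R libraries (log2 fold change 0.05, edgeR adjusted p = 0.476). G0s2, the other protein inhibitor of this lipase in the list, fell from 463, 466 and 508 to 372, 382 and 372 (log2 fold change -0.35, SE 0.074, edgeR adjusted p = 0.0001). The inhibitors of Pnpla2 thus had changes of opposite sign, Hilpda higher and G0s2 lower. Per summed exon length, G0s2 averaged 27 RPKM in control, against 2.16 RPKM for Hilpda.

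Abhd5, the co-activator of Pnpla2, had a log2 fold change of 0.19 (edgeR adjusted p = 0.0119), which was no longer past the threshold under upper quartile scaling, library totals or RPKM (adjusted p = 0.113 to 0.327), or without control replicate 2 (0.0929) or H/R replicate 1 (0.0588). Hormone-sensitive lipase (Lipe) fell by 0.44 (edgeR adjusted p = 0.0048; 0.0503 with DESeq2). Of the exon length of Abhd5 16% and of Lipe 15.6% is shared with an antisense gene, and reads of such pairs may not be told apart. Monoacylglycerol lipase (Mgll) had 4 counts or fewer in each library and was not tested.

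Among genes of fatty acid uptake and binding, Fabp5, a cytosolic carrier, fell by 0.33 on the log2 scale (edgeR adjusted p = 1.06e-07), from a mean of 151 to 112 RPKM. Slc27a4, an acyl-CoA synthetase of fatty acid uptake, had a log2 fold change of 0.06 (edgeR adjusted p = 0.494), negative under upper quartile scaling, library totals and RPKM. The scavenger receptor Cd36 was barely expressed, with 4 to 11 counts in control and 5 to 10 in H/R libraries.

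A further list of 29 droplet, lipolysis and uptake genes held 16 tested, of which 7 passed higher and 4 lower (31% and 31.8% of all tested genes did). Of the 16, 3 were called higher and 1 lower (4.25% and 4.27% of all tested genes were). Lpl, lipoprotein lipase, rose 2.65-fold from 50.3 to 133 mean normalized counts (log2 fold change 1.41, edgeR adjusted p = 3.34e-10), and the perilipin Plin4 rose 2.54-fold from 51.4 to 131 (edgeR adjusted p = 3.94e-09). Slc27a3, a relative of Slc27a4, was called higher from 6.71 to 14.3 (edgeR adjusted p = 0.0223), a call lost on adjusted p with DESeq2, with no filter, and without control replicate 1, control replicate 3 or H/R replicate 3 (adjusted p = 0.137, 0.0545, 0.096, 0.0766 and 0.105). It was also lost on fold with library totals, log2(RPKM + 1) and log2(RPKM + 0.1), at log2 fold changes of 0.984, 0.153 and 0.647. With log2(RPKM + 1) Lpl and Plin4 were under 2-fold too (0.355 and 0.503). Cideb, a hepatic droplet and lipoprotein protein, was called lower (log2 fold change -1.06, edgeR adjusted p = 5.46e-05), but 76.4% of its exon length overlaps Nop9 on the opposite strand. It was under 2-fold without H/R replicate 1 (-0.94) and with log2(RPKM + 1) (-0.671).

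**Figure D2:**
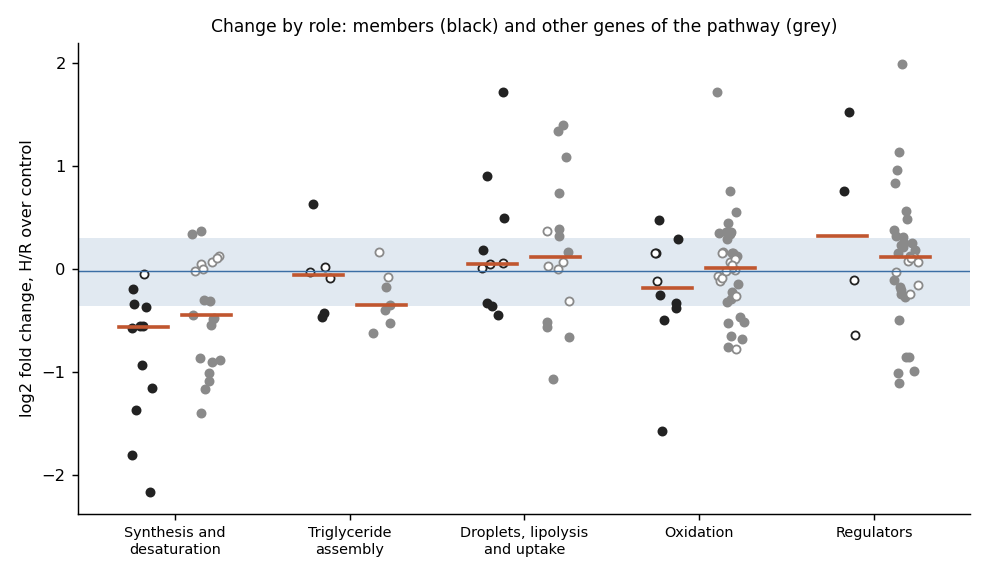
The vertical axis gives the log2 fold change of H/R over control for each tested gene, black for the 46-gene list and grey for the further genes of each role; filled circles passed an adjusted p of 0.05, open circles did not, orange lines are medians, and the blue line and band are the median and quartiles of all tested genes (-0.01, -0.35 and 0.31). Synthesis genes lie mostly below the band in both lists, whereas oxidation genes lie on both sides of 0.

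Oxidation genes passed in both directions. Of 10 tested, 5 passed lower and 3 higher (31.8% and 31% of all tested genes did), and 1 was called, lower (4.27% of all were), with a median log2 fold change of -0.18. Both carnitine palmitoyltransferases were lower. Cpt1a, the rate-limiting transferase of the outer membrane, fell from 2578, 2466 and 2544 to 1984, 1955 and 1916 normalized counts (log2 fold change -0.37, SE 0.044, edgeR adjusted p = 4.26e-09), without overlap. Cpt2, of the inner membrane, fell by 0.32 (edgeR adjusted p = 0.00844; 0.076 with DESeq2 and 0.0549 without H/R replicate 1). The carnitine carrier Slc25a20 had a log2 fold change of 0.16 that did not pass (edgeR adjusted p = 0.232).

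Acyl-CoA dehydrogenases, which open each round of oxidation, did not move together. The medium-chain enzyme Acadm fell from 1444, 1435 and 1411 to 1033, 965 and 1046 normalized counts (log2 fold change -0.49, SE 0.051, edgeR adjusted p = 2.37e-10). The very long-chain enzyme Acadvl rose from 1069, 1030 and 995 to 1450, 1442 and 1414 (log2 fold change 0.48, SE 0.051, edgeR adjusted p = 4.19e-10). Groups of both were apart, but 42.9% of the exon length of Acadvl is shared with Dvl2 on the opposite strand, which itself had a log2 fold change of 0.56, and the reads may not be told apart. The short-chain enzyme Acads fell by 0.25 (edgeR adjusted p = 0.00675; 0.0575 with DESeq2 and 0.0604 without control replicate 3). Acadl, the long-chain enzyme and with 89.1 RPKM in control the most abundant oxidation gene of the list, had a log2 fold change of 0.16 (edgeR adjusted p = 0.0015) that was not past the threshold under upper quartile scaling, library totals or RPKM (adjusted p = 0.074 to 0.273).

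The later steps were also unequal. Hadha, the α subunit of the mitochondrial trifunctional protein, went from 2523, 2450 and 2489 to 3084, 3118 and 2954 normalized counts (log2 fold change 0.29, SE 0.043, edgeR adjusted p = 2.94e-07), with no overlap of the groups. Its partner Hadhb had a log2 fold change of -0.12 (edgeR adjusted p = 0.409). Per summed exon length Hadhb averaged only 1.24 RPKM in control, against 14 RPKM for Hadha. The exon length used for Hadhb was 6595 bases, which is longer than its transcript. That used for Hadha was 8730 bases, and both RPKM values depend on these lengths. The pseudogenes Gm13910 and Gm9108 match 1428 and 1426 of the 2048 transcript bases of Hadhb at 99.8% and 97.6% identity, so the count of Hadhb is uncertain. Ehhadh, the peroxisomal bifunctional enzyme, at chr16:21761287-21787844, fell 2.96-fold from 41.7, 32.2 and 35.8 to 15.1, 10.8 and 11 (log2 fold change -1.57, SE 0.29, edgeR adjusted p = 1.65e-05). Its counts were low but did not overlap.

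Among 40 further oxidation genes, 35 were tested, 12 passed higher (34.3%) and 10 lower (28.6%), with a median of 0.01. These shares lay near those of all tested genes, 31% higher and 31.8% lower, of which 8.52% were called. The 1 called was Acox2, the peroxisomal oxidase of branched chains and bile acid intermediates, which rose 3.31-fold from 74.4 to 247 mean normalized counts (log2 fold change 1.73, SE 0.12, edgeR adjusted p = 1.76e-14). The peroxisomal genes Ehhadh and Acox2 were thus called in opposite directions.

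**Figure D3:**
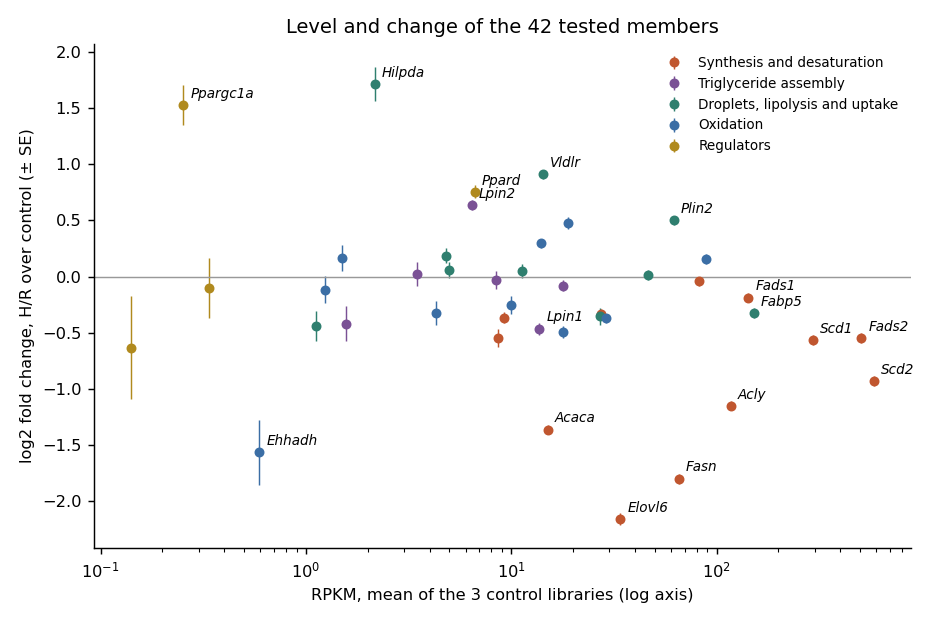
The horizontal axis, on a log scale, is the mean RPKM of each tested gene in the 3 control libraries and the vertical axis its log2 fold change with the standard error as a bar; colours mark the roles. Scd2, Fads2 and Scd1 lie farthest to the right with falls under 2-fold, Elovl6 and Fasn lie lowest, and Hilpda and Ppargc1a lie highest at 2.16 and 0.253 RPKM.

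The regulators were weakly expressed except for Ppard. Ppargc1a, a coactivator that drives mitochondrial and oxidation genes, lies at chr5:51454250-51567726 and rose from 35, 35.1 and 32 to 99.1, 104 and 92.9 normalized counts (log2 fold change 1.53, SE 0.18, edgeR adjusted p = 3.04e-09). No H/R library came near the control libraries. Its relative Ppargc1b had 11, 13 and 12 counts in control and 2, 6 and 13 in H/R libraries (log2 fold change -0.63, edgeR adjusted p = 0.233). The groups overlapped through H/R replicate 3, without which the log2 fold change was -1.38 (adjusted p = 0.0421).

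Among the nuclear receptors, Ppara, which drives oxidation genes in liver, had 28.4, 27.3 and 23.5 normalized counts in control and 30.2, 20.5 and 23 in H/R libraries (log2 fold change -0.11, edgeR adjusted p = 0.747). Pparg, the adipogenic receptor, had 1 to 6 counts in each library and was not tested. Ppard, the widely expressed receptor, rose 1.69-fold (log2 fold change 0.76, SE 0.058, edgeR adjusted p = 1.36e-13). Of the 3 receptors only Ppard was present at more than 100 normalized counts.

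Of 36 further regulators, 34 were tested, 16 passed higher (47.1%), 11 lower (32.4%) and 4 were called. Over all tested genes 31% passed higher, 31.8% lower and 8.52% were called. Creb3l3, a hepatic transcription factor of fasting, was called higher from 4, 13 and 7 to 24, 31 and 33 counts (log2 fold change 1.99, SE 0.35, edgeR adjusted p = 8.05e-06). Insig2, which retains SREBPs in the endoplasmic reticulum, was called higher (log2 fold change 1.14, edgeR adjusted p = 5.11e-14), whereas Mlxipl (ChREBP), the glucose-responsive activator of lipogenic genes, had a log2 fold change of -1.10 (edgeR adjusted p = 0.000155) and the AMPK subunit Prkag2 fell 2.01-fold (edgeR adjusted p = 1.29e-11), with 14.5% of its exon length shared with antisense genes. Prkag2 was under 2-fold with DESeq2 (-0.992) and without control replicate 2 (-0.944) or H/R replicate 2 (-0.946), and Mlxipl without control replicate 1 (-0.963) and with log2(RPKM + 0.1) (-0.875). With log2(RPKM + 1) all 4 were under 2-fold. A pair of genes was added after their values were seen, since they act on the synthesis genes. Srebf1, the main lipogenic SREBP gene, had a log2 fold change of 0.19 (edgeR adjusted p = 0.00122, but 0.15 with library totals and 0.231 with log2(RPKM + 1)). Insig1, a SREBP target and inhibitor, changed by -0.99 (edgeR adjusted p = 7.53e-19). It was past 2-fold with upper quartile scaling (-1.06), library totals (-1.09), log2(RPKM + 1) (-1.05) and log2(RPKM + 0.1) (-1.09). The same held without H/R replicate 3 (-1.03). Srebf2, Scap, Mbtps1 and Mbtps2 of the same list were not added.

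Shares within pairs of related genes do not depend on the scaling of libraries. The share of the first gene in the summed RPKM was compared for 7 pairs with an exact two-sided permutation test, for which 3 against 3 libraries allow no p below 0.1. Lpin1 held 68.7%, 67.3% and 68.4% of the Lpin1 and Lpin2 total in control and 52.4%, 50% and 47.3% in H/R libraries, a change from 68.1% ± 0.756 to 49.9% ± 2.58 (SD, n = 3; exact permutation p = 0.1). In RPKM the pair thus went from a Lpin1 majority to nearly equal parts. This composition depends on the exon lengths used, 5725 bases for Lpin1 and 12233 for Lpin2. In mean normalized counts Lpin1 and Lpin2 were equal in control (1600.3 and 1600.4), and Lpin2 was the majority in H/R (1161 and 2487). Scd1 rose from 33.6% ± 0.599 to 39.4% ± 0.906 of the Scd1 and Scd2 total, and Plin2 from 57.3% ± 0.637 to 65.2% ± 0.438 of the Plin2 and Plin3 total (SD, n = 3; exact permutation p = 0.1 for each). Ppargc1a held 67.1%, 62.6% and 63.2% of its pair with Ppargc1b in control and 96.5%, 90.6% and 81.2% in H/R libraries.

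In each of these pairs the groups did not overlap. The same was found for Ppara beside Ppard (4.84% ± 0.501 to 2.73% ± 0.626) and Acaca beside Acacb (99.85% ± 0.0636 to 99.91% ± 0.00507), the latter a change of 0.0577 percentage points that was 0.0216 without control replicate 1 and rests on the few counts of Acacb. Dgat1 and Dgat2 overlapped, with 69.1% ± 4.81 and 74.9% ± 3.75 (SD, n = 3; exact permutation p = 0.2). After Benjamini-Hochberg adjustment over the 7 pairs, the exact p-values were 0.117 for 6 pairs and 0.2 for the Dgat pair.

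**Figure D4:**
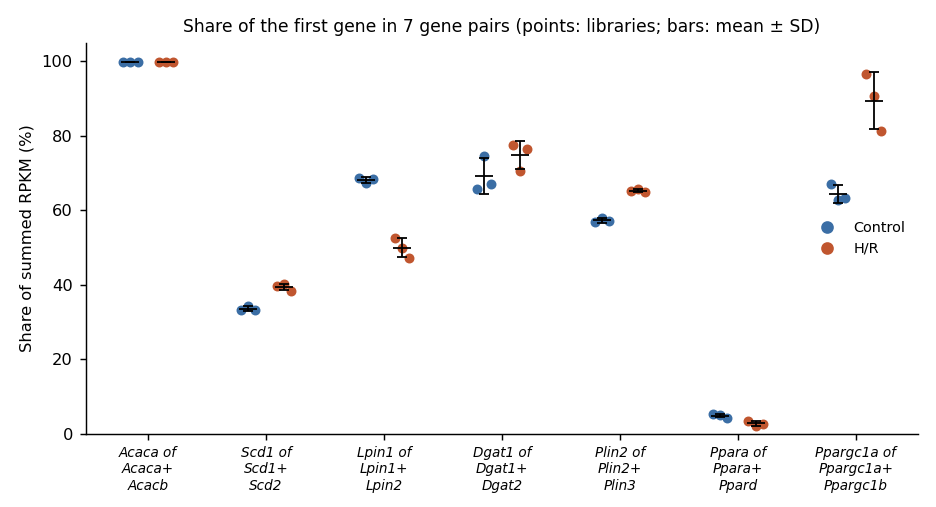
Points give, for each library, the first gene's share (%) of the summed RPKM of its pair, blue for control and orange for H/R, with bars for mean ± SD (n = 3). Lpin1 drops from 68.1% to 49.9% and Ppargc1a climbs from 64.3% to 89.5%, while the Dgat1 shares overlap.

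Over all 42 tested genes, 21 passed lower and 10 higher, 5 were called lower and 2 higher, and the median log2 fold change was -0.22. Over all tested genes 31.8% passed lower, 31% passed higher, 4.27% were called lower and 4.25% called higher. The called genes were Fasn, Acaca, Acly, Elovl6 and Ehhadh, lower, and Hilpda and Ppargc1a, higher. Of 148 further genes of these pathways, 113 were tested, 43 passed lower and 37 higher, and 7 were called lower and 6 higher, with a median log2 fold change of 0.0026.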

How the data were processed

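Total RNA of AML12 cells, 3 control and 3 H/R samples, was made into stranded mRNA libraries. The authors deposited, for each library, whole-number counts per gene without normalization, beside RPKM values. RPKM scales reads to the summed length of all annotated exons of a gene, not to 1 transcript, and to the library total. It could be recomputed from count, length and total with a largest relative error of 1.13e-06. The submitters' processing notes name Trimmomatic 0.36, featureCounts, Subread 1.5.1 and edgeR 3.12.1, with reads mapped to GRCm38; whether strand was used in counting is not given in the sources used here. In 24 rows the symbol had become a date; none is a listed gene.

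Counts of all 25330 genes were filtered by filterByExpr (14020 kept), scaled by TMM and compared with glmQLFit (robust) and glmQLFTest of edgeR 4.0.16 in R 4.3.3, with Benjamini-Hochberg adjustment over all genes tested. Genes passed at an adjusted p under 0.05 and were called at a fold change of 2 or more in addition, the thresholds of the study. For normalized counts, each count was scaled to the mean of the effective library sizes. Standard errors came from the F statistic. The script was tested on simulated data. Exact permutation tests used SciPy 1.17.1. Near-identical copies (95% identity over 200 bases or more) were sought with BLAST 2.17.0 in GENCODE M21 transcripts. Gene coordinates are those of the deposited tables, on GRCm38, counted from 1.

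The 46 genes, the further pathway lists, the markers and the alternatives were chosen with earlier results of these data known. Values in every library are given for the called genes and for a landmark gene of each step. Further pathway genes are named if called, at most 4 per role, by size of change. Those said to be picked or added after their values were seen are exceptions. Alternatives were DESeq2 1.42.0, upper quartile scaling, library totals, no filter, at least 10 counts in every library, a replicate block, limma 3.58.1 on log2(RPKM + 1) and log2(RPKM + 0.1), a fold threshold of 1.5, shares of counts, and leaving out each library.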

Additional observations from a re-analysis of the deposited data

How the results depend on the processing

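The 7 called genes were all called again with DESeq2, upper quartile scaling, library totals, no filter, at least 10 counts in every library, log2(RPKM + 0.1), and without any 1 library. With log2(RPKM + 1), 5 of them and Scd2 were called, because Ehhadh (-0.43) and Ppargc1a (0.42) came under 2-fold on that scale. Scd2 was also called with upper quartile scaling, library totals (-1.04) and log2(RPKM + 0.1), which made 8, and Ppargc1b (-1.38) without H/R replicate 3. A 1.5-fold threshold gave 11 called genes of the list and 3420 of all tested genes in place of 1195, and log2(RPKM + 1) gave 406. The replicate block gave 1200 called genes (1192 shared), the same 7 of the list and 31 passing, as in the analysis without it. Same-numbered libraries shared no visible deviation from their group means (correlations -0.027, 0.0048 and -0.014). The labels do not say whether the samples were paired, and these correlations cannot settle it. Passing genes numbered 27 with DESeq2 and 28 to 31 without 1 library; library totals split them as 8 higher and 23 lower, and all called genes as 476 higher and 810 lower in place of 596 and 599. The median of all genes was -0.08 (upper quartile) and -0.12 (library totals). In an alternative added after seeing the data, genes with shared sequence were left out, and 23 of 32 passed and 5 were called.

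Genes that did not pass changed sign with upper quartile scaling, library totals, log2(RPKM + 1) and log2(RPKM + 0.1), in this order: Dgat1 (-0.048, -0.082, -0.071, -0.092), Plin3 (-0.055, -0.0902, -0.086, -0.088), Pnpla2 (-0.017, -0.052, -0.044, -0.048) and Slc27a4 (-0.011, -0.046, -0.039, -0.046). Without 1 library, the log2 fold change ranged from -0.071 to 0.013 for Agpat2, from -0.062 to 0.14 for Dgat1, from -0.029 to 0.0395 for Plin3, from -0.0078 to 0.11 for Pnpla2 and from -0.28 to 0.0022 for Ppara. Me1 and Gpam passed lower under these 4 settings. The Plin2 share rose by 6.76 percentage points with counts and by 7.95 with RPKM. The cause was not tested. Depth limits Acacb, Mgll, Cd36 and Pparg, which could not be tested.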
